A study of Mus musculus with 10 samples.

Results

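The genes described here are 50 mouse genes that androgens induce in other tissues, read in embryonic stem cell (ESC) lines that differ in the number of working Tdg alleles. The members came from a list drawn up from general knowledge of androgen action. No measured value entered the rule for choosing them, but earlier results of these data were known when the list was made. All 50 were found among the 35427 genes to which transcripts could be assigned, and 48 of them had at least 20 reads in at least 1 of 10 lines, a level that 14105 genes reached. The other two, Maf and Inpp4b, stayed at or below 2 reads and 1 read in every line and entered no test. RNA sequencing was carried out on 10 male C57BL/6 lines, each as 1 library: 3 wt lines with both Tdg alleles intact (Tdg+/+), 3 Tdg+/- lines with 1 and 4 Tdg-/- lines with none. The lines came from blastocysts of Tdg+/- matings, were first expanded on feeder cells and were then passaged on gelatin in serum-free medium with LIF and the 2i inhibitors. No line received an androgen or any other treatment. The labels give no age and do not say which line came from which mating, so that p values measure the spread between lines.

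Steroid hormones raise transcription of their target genes through ligand-activated transcription factors that work together with coactivators and pioneer factors. The glucocorticoid, progesterone and mineralocorticoid receptors bind a palindromic DNA element that also occurs near genes induced by androgens. These genes are best known from prostate epithelium, where they serve lipid and protein synthesis, secretion, ion transport and cell growth, and many of them have other regulators in other cells. Thymine DNA glycosylase, the product of Tdg, removes formylcytosine and carboxylcytosine from DNA and is known to bind nuclear receptors and their coactivators.

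Of 3 genes for receptors of this element, Nr3c1, for the glucocorticoid receptor, was the best covered, with 266 to 437 reads per line. Nr3c2, for the mineralocorticoid receptor, had 8 to 34 reads and Pgr, for the progesterone receptor, had 4 to 29. None of these 3 genes passed an adjusted p of 0.05 in any comparison. Of 10 genes for making or converting androgens only 3 (Star, Srd5a1 and Srd5a3) reached 20 reads in a line, while Hsd3b1 was at 0 reads in every line.

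The libraries held 31095354 to 39916106 reads in genes. Tdg stood at 86.4, 91.1 and 93.1 CPM (each gene's counts scaled to a common library size, which was adjusted by the trimmed mean of M values) in wt lines, at 40.3, 41.9 and 45.9 in Tdg+/- lines and at 7.75, 10.6, 10.3 and 8.49 in Tdg-/- lines, so that every line matched its label. All 6 ESC marker genes were detected, with a summed level of 2647 to 3434 CPM per line. These genes did not all go the same way in the Tdg-/- lines. In lines 1, 2, 3 and 4, Pou5f1 was at 1142, 1892, 1564 and 1607 CPM and Zfp42 at 158, 245, 221 and 239 CPM. Esrrb was at 296, 189, 197 and 180 CPM and Klf4 at 213, 158, 161 and 139 CPM. Sox2 and Nanog differed less between these lines. The 10 feeder fibroblast markers were also all detected, with sums from 7.08 CPM in Tdg+/- line 2 to 58.0 CPM in Tdg+/- line 3. Tdg-/- line 1 stood apart from the other lines of its genotype. The counts of line pairs were compared over genes by chi-square, whose value per gene was 89.0 to 146 between this line and Tdg-/- lines 2, 3 and 4, but 19.5 to 28.0 among those lines. Counts of calls that depend on this line are given with and without it, and so are the values of several members.

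The members differed widely in level. TPM, a unit of transcript abundance that corrects for transcript length and so allows levels to be compared between genes, was highest for Tsc22d1 (median over the lines 337), Dbi (335) and Tpd52 (209). Tsc22d1 encodes a leucine zipper transcriptional regulator, Dbi the acyl-CoA binding protein and Tpd52 a protein of vesicle traffic. Of the 50 members 27 had a median TPM of at least 10. The lowest of the tested members were Zbtb10, a zinc finger repressor (1.22), Homer2, a scaffold protein best known from synapses (1.21), and Zmiz1, a transcriptional coactivator (0.0537). Zmiz1 was covered by no more than 12 to 29 reads per line.

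**Figure D1:**
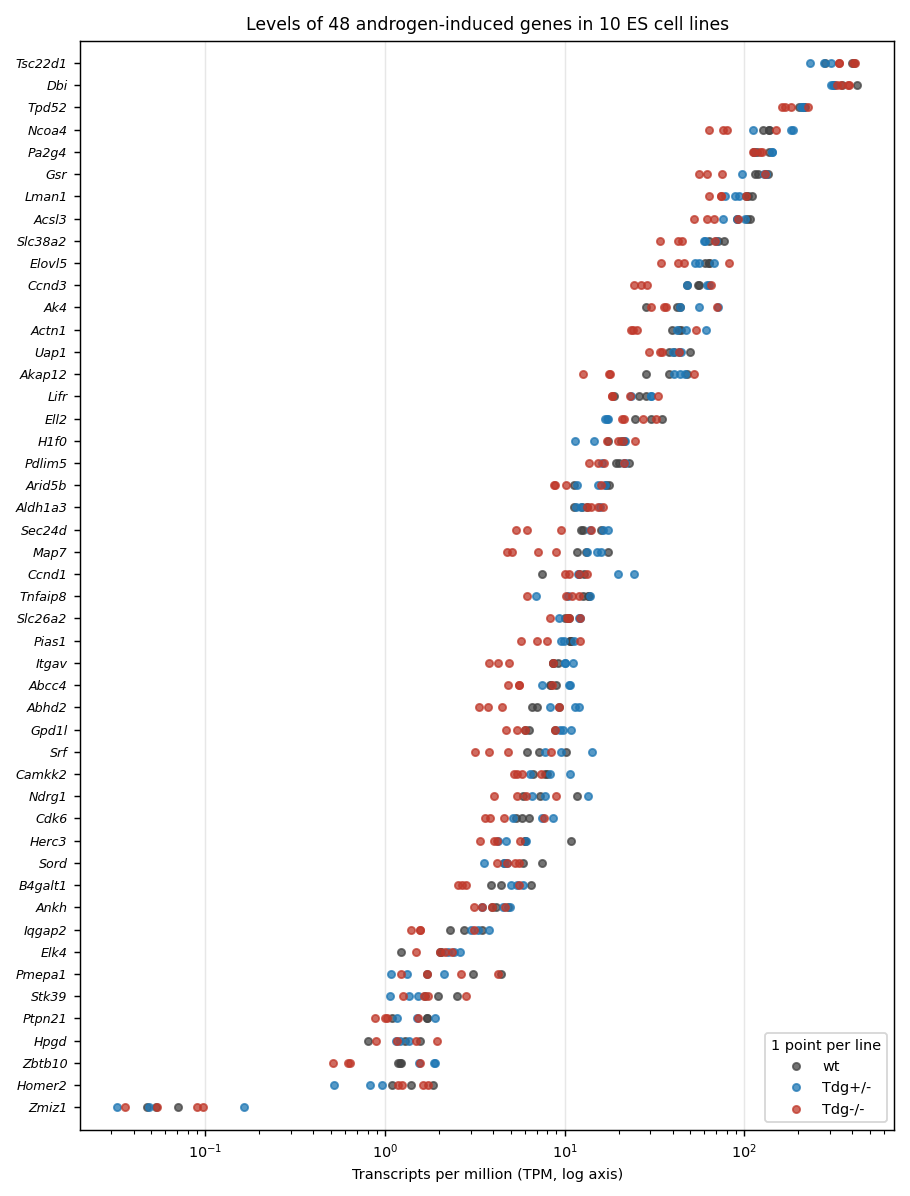
Level of each of the 48 tested members in TPM (log axis), with 1 point per line coloured by genotype and genes ordered by their median over the 10 lines. Levels run from Zmiz1 (median 0.0537) to Tsc22d1 (median 337).

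Most members differed little between lines. In CPM, the highest line was less than 2 times the lowest for 35 of the 48 genes, and at least 3 times the lowest for only 2, Homer2 (3.59 times) and Akap12 (3.01 times). The median of this ratio was 1.84 for the members and 1.87 for all genes under the same read minimum. The steadiest members were Tpd52 (1.16 times), Slc26a2, a sulfate transporter (1.23 times), and Lman1, a cargo receptor of the secretory pathway (1.25 times).

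The direct comparison of Tdg-/- with Tdg+/- lines was the only one in which members passed the test in edgeR with all lines, which is what is meant below where a gene is said to be called and no other tool or setting is named. Homer2, Stk39, Ell2 and Tsc22d1 were higher in Tdg-/- lines and no member was lower at an adjusted p of 0.05 (edgeR quasi-likelihood test, Benjamini-Hochberg over all genes tested). These 4 of 48 members (8.33%) compare with 3.52% of all 13962 genes called higher, and the 0 members called lower compare with 5.51% of all genes. At an unadjusted p of 0.05, 7 members were higher and 13 were lower (14.6% and 27.1%), against 16.4% and 18.8% of all genes. DESeq2 called 11 members (22.9%) and 24.0% of all genes. The 6 higher members were the same 4 with Dbi and H1f0, and the 5 lower ones were Abhd2, Itgav, Map7, Ncoa4 and Sec24d. By adjusted p, in edgeR as in DESeq2, the share of members called in either direction was near that of all genes. The median log2 fold change of the members was -0.20, beside -0.02 for all genes tested. In bulk RNA, fewer cells that express a gene and less RNA per cell cannot be told apart.

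Homer2 had the largest fold change of the 4. Its level was 3.50, 4.54 and 4.14 CPM in the wt lines, 2.75, 1.57 and 2.67 CPM in the Tdg+/- lines and 3.77, 5.62, 4.84 and 4.72 CPM in the Tdg-/- lines. Over all transcripts of the gene, all Tdg+/- lines were thus below every line of both other genotypes, while wt and Tdg-/- lines overlapped. Coding transcripts held 62.7% to 100% of the Homer2 reads per line. In coding reads alone, wt line 1 (71.4 of 114 reads) was below Tdg+/- line 1 (92 of 92 reads), a library of similar size. The separation of Tdg+/- from wt lines therefore did not hold in coding reads. The Tdg-/- lines had 123.2 to 204 coding reads, and the Tdg+/- lines at most 111. On the log2 scale the difference of Tdg-/- from Tdg+/- was 1.02 ± 0.24 (SE, edgeR adjusted p = 0.0379). The difference of Tdg+/- from wt was -0.81 ± 0.27 (adjusted p = 0.188) and that of Tdg-/- from wt was 0.25 ± 0.19 (adjusted p = 0.487). These contrasts share lines and are not independent of each other. Homer2 was covered by only 60 to 204 reads per line.

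Stk39, which encodes a kinase that activates sodium-potassium-chloride cotransporters, had the same order of genotypes. It was at 3.78, 3.11 and 3.73 CPM in wt lines, at 1.88, 1.57 and 2.53 CPM in Tdg+/- lines and at 3.71, 4.33, 4.02 and 3.15 CPM in Tdg-/- lines. Again no Tdg+/- line reached the lowest line of either other genotype. The log2 difference of Tdg-/- from Tdg+/- was 0.93 ± 0.22 (edgeR adjusted p = 0.0391), beside -0.83 ± 0.25 for Tdg+/- against wt (adjusted p = 0.168) and 0.13 ± 0.18 for Tdg-/- against wt (adjusted p = 0.704). Salmon assigned these reads almost entirely to transcripts that the annotation lists as noncoding. The coding transcript received at most 6.4 reads in any line, of 60 to 157 reads for the gene, so that the values describe RNA from the Stk39 locus rather than its coding transcript.

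Ell2 encodes an elongation factor for RNA polymerase II. It stood at 43.2, 43.6 and 51.5 CPM in wt lines, at 34.9, 25.2 and 26.1 CPM in Tdg+/- lines and at 48.2, 39.1, 45.3 and 39.4 CPM in Tdg-/- lines. The Tdg+/- lines lay below all other lines. The log2 difference was 0.58 ± 0.15 for Tdg-/- against Tdg+/- (edgeR adjusted p = 0.0442), -0.69 ± 0.16 for Tdg+/- against wt (adjusted p = 0.106) and -0.08 ± 0.12 for Tdg-/- against wt (adjusted p = 0.730). Coding transcripts held 65.8% to 75.5% of the reads of this gene per line.

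Tsc22d1, the most abundant member, was at 342, 476 and 452 CPM in wt lines, at 325, 341 and 355 CPM in Tdg+/- lines and at 389, 554, 533 and 456 CPM in Tdg-/- lines. Its Tdg+/- lines were below every Tdg-/- line but overlapped wt line 1. The log2 difference was 0.51 ± 0.14 for Tdg-/- against Tdg+/- (edgeR adjusted p = 0.0499), -0.33 ± 0.14 for Tdg+/- against wt (adjusted p = 0.276) and 0.21 ± 0.17 for Tdg-/- against wt (adjusted p = 0.484).

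The calls of these genes depended on which lines were in the fit, while their fold changes moved less. None of the 48 members was called when Tdg+/- line 2 or 3, or Tdg-/- line 2, 3 or 4, was left out, but then only 12 to 22 of all genes were called, beside 1261 with all lines. With the line number as a block 0 members and 6 genes were called. Without Tdg+/- line 1 there were 3 members higher (Ell2, Homer2 and H1f0) and 3 lower (6.25% each), beside 4.41% and 6.62% of all genes. Without Tdg-/- line 1 there were 6 higher, with all of Homer2, Stk39, Ell2 and Tsc22d1 among them, and 19 lower. Over all alternatives the log2 difference of Tdg-/- from Tdg+/- lay between 0.77 and 1.17 for Homer2, 0.70 and 1.14 for Stk39, 0.51 and 0.79 for Ell2 and 0.37 and 0.71 for Tsc22d1.

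**Figure D2:**
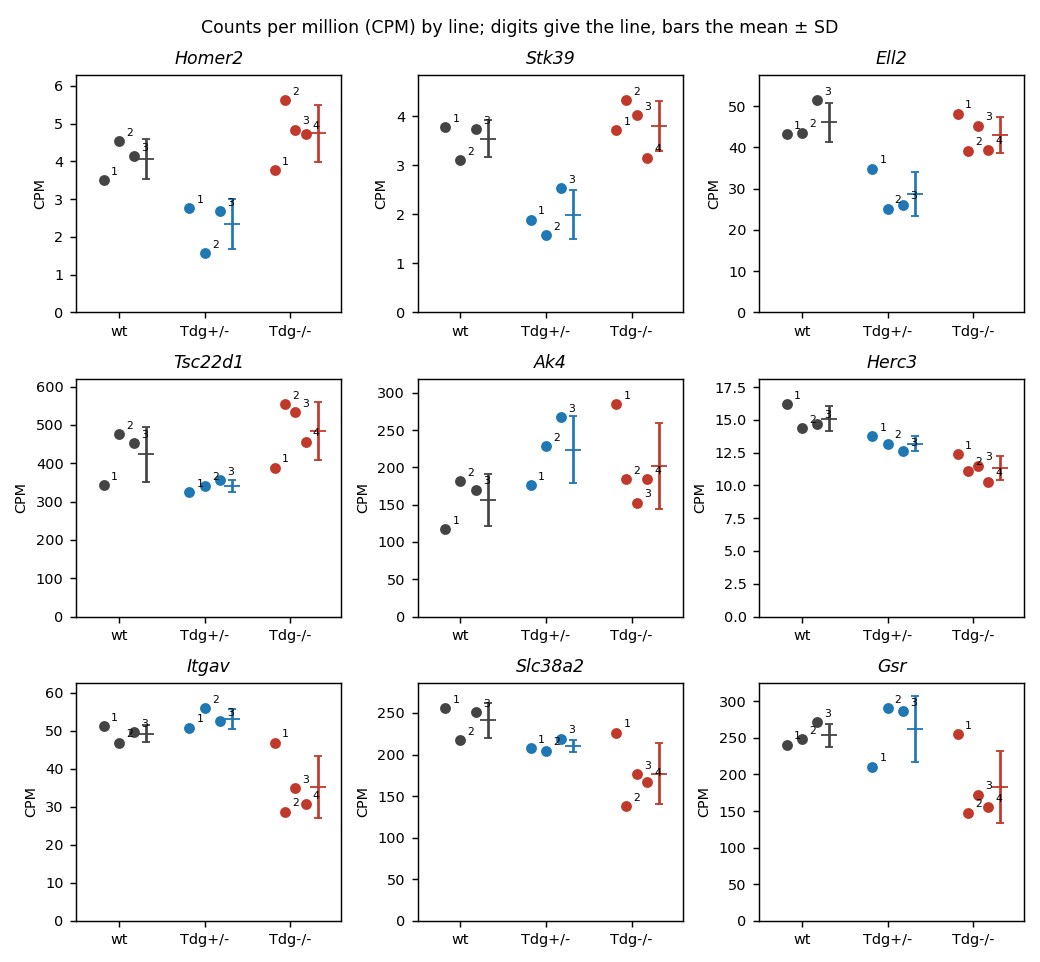
Level in CPM of the 9 members chosen by the threshold or by p value, with 1 point per line (digits give the line number). The mean ± SD of each genotype is beside the points (wt n = 3, Tdg+/- n = 3, Tdg-/- n = 4), and each axis starts at 0. In the upper row the Tdg+/- lines of Homer2, Stk39 and Ell2 lie below all other lines, and in the lower row Tdg-/- line 1 lies above Tdg-/- lines 2, 3 and 4.

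Promoter sequence was examined because the element bound by these receptors also occurs near genes induced by androgens. No such element was required of a member. RefSeq-derived windows of 300 bases (250 before to 50 after a start site, mouse build GRCm38.p6) were matched to 37 of the 50 members by symbol. The full element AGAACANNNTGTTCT, which is its own reverse complement, occurred in 0.00913% of all 32851 windows and in none of the 55 windows of members. An element this rare would be missing from almost any set of 55 windows, so its absence does not set the members apart. The half-site AGAACA, read on either strand and also contained in the full element, occurred in 19.0% of all windows and in 12.7% of member windows, those of Abcc4, Cdk6, Ncoa4, Tsc22d1 and Uap1. These matches are a description of the letters in the windows.

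For the members that passed the test, the bases before those start sites that lie outside annotated exons are shown for both Homer2 starts and for the Tsc22d1 start with a half-site, which is in capitals. The windows of Ell2 and Stk39 lay inside annotated exons. Homer2 is on chromosome 7 and both stretches are on the minus strand, chr7:81706945-81707175 at the distal start and chr7:81692966-81693215 at the internal start. Their G and C content was 82.3% and 52.0%. Tsc22d1 is on chromosome 14 and its stretch is on the plus strand, chr14:76503976-76504213, with 45.8% G and C. All are given 5′ to 3′.
Homer2 distal start: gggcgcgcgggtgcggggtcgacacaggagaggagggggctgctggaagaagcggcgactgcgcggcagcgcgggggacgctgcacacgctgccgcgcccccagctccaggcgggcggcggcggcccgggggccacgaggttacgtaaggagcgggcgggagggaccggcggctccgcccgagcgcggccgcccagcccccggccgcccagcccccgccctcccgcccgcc
Homer2 internal start: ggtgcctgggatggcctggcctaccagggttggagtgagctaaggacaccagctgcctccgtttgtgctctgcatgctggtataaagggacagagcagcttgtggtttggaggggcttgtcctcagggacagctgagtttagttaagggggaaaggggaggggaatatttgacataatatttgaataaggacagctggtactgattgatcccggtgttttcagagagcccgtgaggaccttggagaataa
Tsc22d1: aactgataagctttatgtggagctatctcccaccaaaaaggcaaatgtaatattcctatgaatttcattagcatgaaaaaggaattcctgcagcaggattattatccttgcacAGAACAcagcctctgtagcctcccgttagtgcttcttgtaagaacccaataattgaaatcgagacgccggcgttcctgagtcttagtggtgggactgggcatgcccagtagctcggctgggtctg

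Between Tdg+/- and wt lines no member passed an adjusted p of 0.05 in edgeR, in a comparison in which 0.0288% of all genes did. At an unadjusted p of 0.05 there were 3 members higher (Ak4, Abhd2 and Gpd1l, 6.25%) and 5 lower (Ell2, Stk39, Homer2, Tsc22d1 and Elovl5, 10.4%), against 9.55% and 7.41% of all genes. DESeq2 called 1 member, Ell2, and 5.36% of all genes. The lines of both genotypes did not overlap for 0 members that were higher in Tdg+/- and for 7 that were lower (14.6%), where 12.6% and 9.09% of all genes showed this. The 7 were Ell2, Elovl5, Herc3, Homer2, Slc26a2, Stk39 and Zmiz1. With 3 surrogate variables, the correction that the study's methods state, 4 members were higher and 8 lower, beside 13.4% of all genes in each direction. The median log2 fold change was -0.04 for the members and -0.02 for all genes.

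Ak4, a mitochondrial adenylate kinase, had the smallest p among members that were higher in Tdg+/- lines. It was at 117, 182 and 170 CPM in wt lines, at 176, 229 and 267 CPM in Tdg+/- lines and at 285, 185, 153 and 184 CPM in Tdg-/- lines. The genotypes overlapped, since wt line 2 was above Tdg+/- line 1, and the highest value of all was that of Tdg-/- line 1. The log2 difference of Tdg+/- from wt was 0.51 ± 0.20 (edgeR adjusted p = 0.258).

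Between Tdg-/- and wt lines again no member passed the adjusted threshold, and 0.0718% of all genes did. At an unadjusted p of 0.05 there were 0 members higher and 5 lower (Herc3, Itgav, Slc38a2, Gsr and Iqgap2, 10.4%), against 9.13% and 6.79% of all genes, and DESeq2 called 0 members and 0.668% of all genes. With the line number as a block, 1 member was higher and 8 were lower at that unadjusted p, beside 756 and 808 of all 13926 genes. In that fit 0 members passed the adjusted threshold. Lines did not overlap for 0 members in the higher and 2 in the lower direction (Herc3 and Ptpn21), where 4.47% and 5.33% of all genes showed this. Between Tdg-/- and Tdg+/- lines the same counts were 8 higher and 4 lower, beside 11.4% and 13.1% of all genes. The median log2 fold change of Tdg-/- against wt was -0.14 for the members and -0.01 for all genes.

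A trend over the 2, 1 and 0 wild-type alleles of the 3 genotypes was fitted across all lines. No member passed an adjusted p of 0.05, and 0.0354% of all genes did. At an unadjusted p of 0.05, 0 members were higher and 8 lower (16.7%) with fewer alleles, against 7.49% and 6.5% of all genes, and DESeq2 called 0 members and 0.362% of all genes. The 8 were Herc3, Slc38a2, Itgav, Gsr, B4galt1, Pias1, Iqgap2 and Ptpn21.

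**Figure D3:**
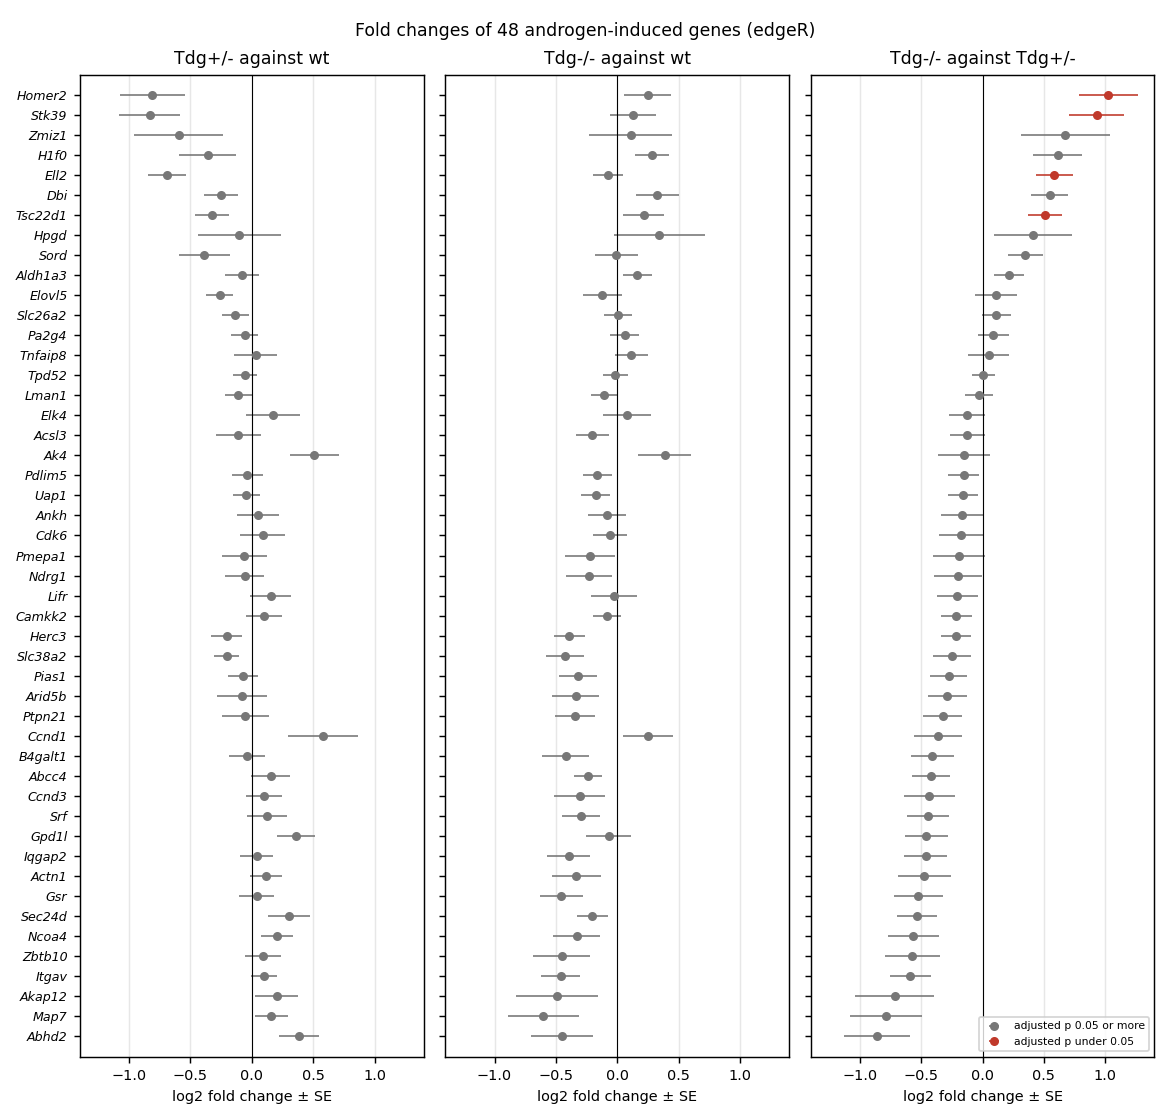
Log2 fold change ± SE (edgeR) of the 48 tested members in the comparisons of Tdg+/- with wt, Tdg-/- with wt and Tdg-/- with Tdg+/- (wt n = 3, Tdg+/- n = 3, Tdg-/- n = 4), with genes ordered by the last. Red marks an adjusted p under 0.05, which Homer2, Stk39, Ell2 and Tsc22d1 reached in the right panel and no member reached in the others.

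Herc3, an E3 ubiquitin ligase, was the only member whose lines did not overlap between any pair of genotypes. The share of all genes separated in every pair was not counted. In single pairs 9.09% (Tdg+/- against wt), 5.33% (Tdg-/- against wt) and 13.1% (Tdg-/- against Tdg+/-) of all genes were lower without overlap. Herc3 was at 16.2, 14.4 and 14.7 CPM in wt lines, 13.7, 13.2 and 12.6 CPM in Tdg+/- lines and 12.4, 11.1, 11.5 and 10.3 CPM in Tdg-/- lines. The differences were small beside those of Homer2. The trend was -0.21 ± 0.06 on the log2 scale per allele lost (edgeR adjusted p = 0.337), the difference of Tdg-/- from wt was -0.39 ± 0.12 (adjusted p = 0.295) and that of Tdg+/- from wt was -0.20 ± 0.13 (adjusted p = 0.448). Without Tdg-/- line 1 the difference of Tdg-/- from wt was -0.43 ± 0.11 (edgeR adjusted p = 0.0302).

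Itgav encodes the alpha V integrin subunit, a receptor for vitronectin and other matrix proteins. It was at 51.3, 46.8 and 49.7 CPM in wt lines, at 50.8, 55.9 and 52.6 CPM in Tdg+/- lines and at 46.9, 28.8, 34.8 and 30.7 CPM in Tdg-/- lines. Tdg-/- line 1 was level with the wt lines and the other Tdg-/- lines were far below them. The log2 difference was -0.46 ± 0.16 for Tdg-/- against wt (edgeR adjusted p = 0.295), -0.59 ± 0.17 for Tdg-/- against Tdg+/- (adjusted p = 0.0530) and -0.26 ± 0.10 per allele lost (adjusted p = 0.341). Without Tdg-/- line 1 the difference from wt was -0.62 ± 0.10 (adjusted p = 0.0105).

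Slc38a2, an amino acid transporter of the cell surface, was at 255, 217 and 251 CPM in wt lines, at 207, 205 and 219 CPM in Tdg+/- lines and at 226, 138, 176 and 167 CPM in Tdg-/- lines. Tdg-/- line 1 lay among the wt and Tdg+/- lines here too. The log2 difference was -0.43 ± 0.16 for Tdg-/- against wt (edgeR adjusted p = 0.295), -0.25 ± 0.15 for Tdg-/- against Tdg+/- (adjusted p = 0.271) and -0.22 ± 0.07 per allele lost (adjusted p = 0.337). Without Tdg-/- line 1 the difference from wt was -0.56 ± 0.12 (adjusted p = 0.0177).

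Gsr, glutathione reductase, was at 241, 248 and 272 CPM in wt lines, at 210, 290 and 286 CPM in Tdg+/- lines and at 255, 148, 172 and 155 CPM in Tdg-/- lines. As for Itgav, Tdg-/- line 1 was level with the wt lines and the other Tdg-/- lines were below them. Unlike for Itgav, Tdg-/- and Tdg+/- lines overlapped, since Tdg-/- line 1 was above Tdg+/- line 1. The log2 difference was -0.46 ± 0.18 for Tdg-/- against wt (edgeR adjusted p = 0.296), -0.52 ± 0.20 for Tdg-/- against Tdg+/- (adjusted p = 0.0993) and -0.25 ± 0.10 per allele lost (adjusted p = 0.341). Without Tdg-/- line 1 the difference from wt was -0.65 ± 0.09 (adjusted p = 0.0102).

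With 3 surrogate variables and all lines kept, the log2 differences of Tdg-/- from wt were -0.0986 for Itgav, -0.0029 for Slc38a2 and -0.0769 for Gsr (adjusted p from 0.743 to 0.998).

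Across the members Tdg-/- line 1 thus differed from the other lines that lack Tdg. Each member was expressed in every line as its log2(CPM + 0.5) minus its median over the 10 lines. The median of this value over the 48 members was 0.08 in Tdg-/- line 1 and -0.22, -0.19 and -0.10 in Tdg-/- lines 2, 3 and 4, while over all genes the medians of these lines lay between -0.0128 and 0.0023. The wt lines were at 0.05, 0.02 and 0.05 and the Tdg+/- lines at -0.05, 0.07 and 0.10. Tdg-/- line 2 was the lowest of the 10 lines for 18 members and Tdg-/- line 1 for 0. Over all genes Tdg-/- line 2 was the lowest in 16.8% and Tdg-/- line 1 in 5.66%.

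**Figure D4:**
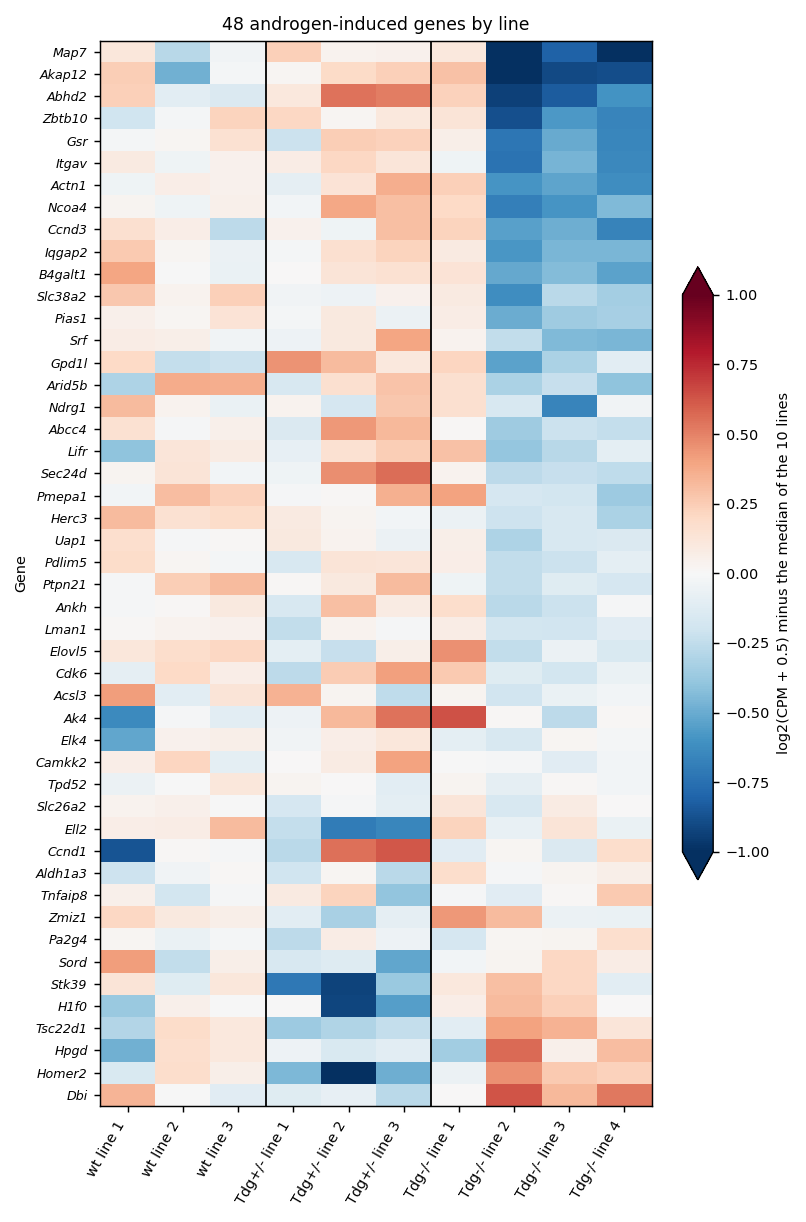
Difference of each of the 48 tested members from its median over the 10 lines, on the scale log2(CPM + 0.5), with lines in columns, genotypes separated by black lines and genes ordered by their mean in Tdg-/- lines 2, 3 and 4; colours are capped at -1 and 1. Many members are blue in Tdg-/- lines 2, 3 and 4 and not in Tdg-/- line 1, and Homer2, Stk39 and Ell2 are blue in the Tdg+/- lines.

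With Tdg-/- line 1 left out, 17 of the 48 members (35.4%) were lower in Tdg-/- than in wt lines and 0 were higher, where 10.5% of all genes were lower and 11.7% were higher. Against Tdg+/- lines 19 members (39.6%) were lower and 6 (12.5%) were higher, where 22.2% of all genes were lower and 18.4% were higher. Both comparisons rest on the same Tdg-/- lines. With 3 surrogate variables and all lines kept, 18 members were lower and 9 higher in Tdg-/- against Tdg+/- lines, beside 21.8% and 19.7% of all genes. The same correction for Tdg-/- against wt called 0 members, beside 0.0646% of all genes lower and 0.108% higher. At an unadjusted p of 0.05 it gave 2 members higher and 1 lower, beside 689 and 745 of all 13926 genes. The member median was -0.02, so that the lower values against wt were not seen under this correction. With the line number as a block and Tdg-/- line 1 left out, 24 of the 48 members were lower than wt and 3 were higher. Of all genes 19.8% were lower and 20.5% higher in that fit, in which only lines 2 and 3 have a counterpart of the same number. That fit and those with 3 surrogate variables leave few degrees of freedom, so that their counts are uncertain. The decision to describe the comparison without this line was taken after its values were seen, and no other line changed the result against wt when left out.

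**Figure D5:**
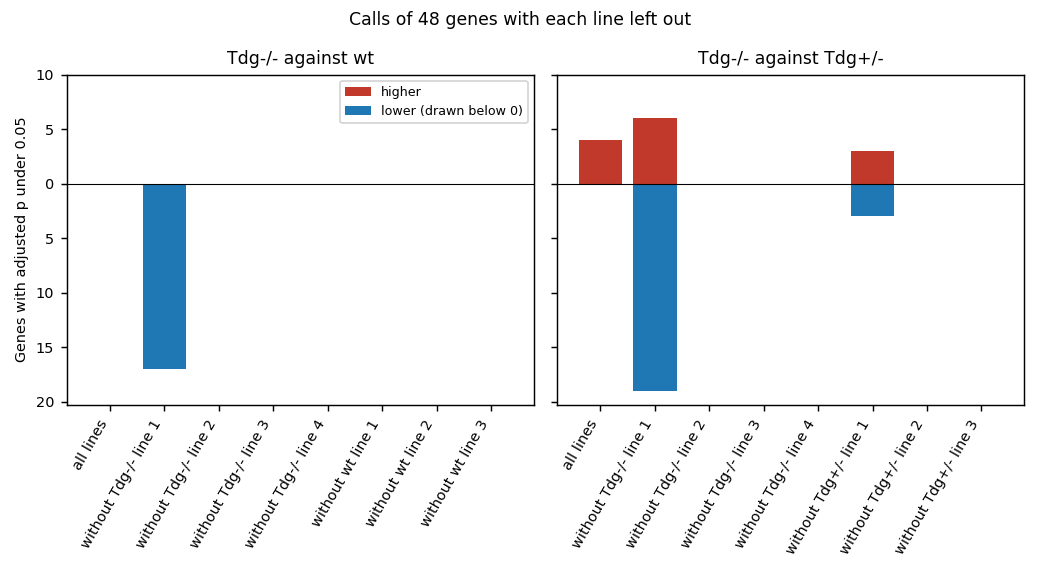
Number of the 48 members with an adjusted p under 0.05 (edgeR) with all lines and with each line left out, for Tdg-/- against wt and for Tdg-/- against Tdg+/-; bars above 0 count higher members and bars below 0 count lower members. Leaving out Tdg-/- line 1 gives 17 lower members against wt, and 19 lower and 6 higher members against Tdg+/-.

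Several members of the cytoskeleton and of cell adhesion were among those lower without Tdg-/- line 1, but Homer2, which belongs to the same list, had its highest values in Tdg-/- lines 2, 3 and 4. The summed level of their 7 genes was 508 to 649 CPM in wt lines, 583 to 690 CPM in Tdg+/- lines and 680 CPM in Tdg-/- line 1, but 318, 370 and 361 CPM in Tdg-/- lines 2, 3 and 4, and most of it came from Akap12 and Actn1. Map7, a microtubule-associated protein, was at 37.3, 28.3 and 33.7 CPM in wt lines, at 40.7, 35.3 and 35.5 CPM in Tdg+/- lines and at 37.1, 14.1, 19.5 and 15.6 CPM in Tdg-/- lines. Akap12, a scaffold for protein kinase A, was at 327, 198 and 272 CPM in wt lines, at 281, 316 and 326 CPM in Tdg+/- lines and at 339, 113, 148 and 149 CPM in Tdg-/- lines. For both genes Tdg-/- line 1 was as high as the wt lines. The log2 difference from wt was -0.60 ± 0.29 for Map7 with all lines (edgeR adjusted p = 0.330) and -0.99 ± 0.16 without that line (adjusted p = 0.0104). For Akap12 it was -0.49 ± 0.33 (adjusted p = 0.432) and -0.93 ± 0.19 (adjusted p = 0.0168). With 3 surrogate variables and all lines these differences turned positive, at 0.13 for Map7 (adjusted p = 0.657) and 0.40 for Akap12 (adjusted p = 0.420). Actn1, a crosslinker of actin filaments, and Iqgap2, a scaffold protein of the cell cortex, were also lower without that line, at -0.57 ± 0.08 (adjusted p = 0.0102) and -0.56 ± 0.12 (adjusted p = 0.0184), against -0.33 ± 0.20 (adjusted p = 0.385) and -0.40 ± 0.17 (adjusted p = 0.310) with it. Pdlim5, a protein of the Z-disc and of actin fibres, ranged from 44.4 to 60.1 CPM over all lines and was not called. These genes, apart from Itgav and Homer2, were singled out after their values were seen.

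Among the 10 metabolic enzymes and lipid-binding proteins edgeR called no member with all lines, while DESeq2 called Dbi higher and Abhd2 lower in Tdg-/- than in Tdg+/- lines. Abhd2, a lipid hydrolase, was at 57.8, 45.4 and 44.1 CPM in wt lines, at 52.5, 71.3 and 69.6 CPM in Tdg+/- lines and at 57.3, 25.3, 27.2 and 32.1 CPM in Tdg-/- lines. It was highest in Tdg+/- lines 2 and 3 and lowest in Tdg-/- lines 2, 3 and 4, and its log2 difference from wt was -0.45 ± 0.26 with all lines (edgeR adjusted p = 0.372) and -0.77 ± 0.14 without Tdg-/- line 1 (adjusted p = 0.0128). Dbi went the other way, with 168, 133 and 123 CPM in wt lines, 122, 126 and 110 CPM in Tdg+/- lines and 133, 205, 166 and 192 CPM in Tdg-/- lines. Its log2 difference between Tdg-/- and Tdg+/- lines was 0.55 ± 0.15 (adjusted p = 0.0517), which did not reach the threshold. Elovl5, which elongates polyunsaturated fatty acids, was at 129 to 137 CPM in wt lines and at 101 to 124 CPM in Tdg+/- lines without overlap. Acsl3 (fatty acid activation), Aldh1a3 (retinoic acid synthesis), Gpd1l, Sord (sorbitol oxidation) and Hpgd (prostaglandin breakdown) were not called by edgeR or DESeq2 with all lines, and Hpgd was the weakest at 0.645 to 1.87 CPM. Without Tdg-/- line 1, Elovl5 was lower in Tdg-/- than in wt lines (-0.29 ± 0.09, edgeR adjusted p = 0.0456). In that setting Gpd1l was lower in Tdg-/- than in Tdg+/- lines (-0.61 ± 0.14, edgeR adjusted p = 0.00904).

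The 9 transporters and proteins of the secretory pathway were also not called by edgeR with all lines, although DESeq2 called Sec24d lower in Tdg-/- than in Tdg+/- lines. All 9 had a negative trend per allele lost (median -0.10 on the log2 scale, beside -0.02 for all genes). With 3 surrogate variables the trend over all 48 tested members had a median of 0.0004 and was positive for 24 of them. B4galt1, a galactosyltransferase of the Golgi, was at 21.3 to 29.4 CPM in wt lines, at 22.3 to 24.8 CPM in Tdg+/- lines and at 24.6, 15.5, 16.4 and 15.3 CPM in Tdg-/- lines. Abcc4, an exporter of organic anions, was at 43.9 to 49.5 CPM in wt lines and at 44.9, 34.6, 38.1 and 37.7 CPM in Tdg-/- lines. Both were lower than wt without Tdg-/- line 1. Sec24d, a cargo adaptor of vesicles that leave the endoplasmic reticulum, was lower in that setting than in Tdg+/- lines only, but the difference between these outcomes was not tested. Coding transcripts held only 20.1% to 32.5% of the Sec24d reads per line, and 32.6% to 43.2% of the Uap1 reads. Uap1, an enzyme of nucleotide sugar synthesis, Ankh, a pyrophosphate transporter, Lman1, Slc26a2 and Tpd52 were not called in either comparison without that line.

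Of the 11 tested members with roles in transcription and chromatin, edgeR called Ell2 and Tsc22d1, and DESeq2 called H1f0 (higher) and Ncoa4 (lower) as well. Ncoa4, a coactivator of nuclear receptors that is also the cargo receptor for ferritin degradation, was at 195, 185 and 198 CPM in wt lines, at 187, 251 and 235 CPM in Tdg+/- lines and at 220, 119, 127 and 141 CPM in Tdg-/- lines. Pias1, a SUMO ligase, Srf, the serum response factor, and Zbtb10 had Tdg-/- line 1 within the range of the wt lines and lines 2, 3 and 4 below it, whereas Ncoa4 in Tdg-/- line 1 was above every wt line. These 4 genes were lower than wt without Tdg-/- line 1, with log2 differences from -0.71 (Zbtb10) to -0.41 (Srf), where those with all lines were -0.45 and -0.29 and did not pass the test. H1f0, the linker histone of nondividing cells, was at 38.3, 51.5 and 49.6 CPM in wt lines, at 49.5, 26.0 and 33.8 CPM in Tdg+/- lines and at 52.0, 62.0, 58.7 and 49.8 CPM in Tdg-/- lines, and was not called by edgeR with all lines (adjusted p = 0.0719 for Tdg-/- against Tdg+/-). Without Tdg-/- line 1 it was higher than in Tdg+/- lines and Arid5b, a DNA-binding cofactor of a histone demethylase, was lower. Elk4, Pa2g4 and Zmiz1 were not called with all lines or without that line.

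Of the 11 tested signalling and cell cycle members Stk39 was called. The cyclins differed from each other in their values. Ccnd3 was at 85.4, 79.7 and 63.5 CPM in wt lines, at 78.7, 73.9 and 93.8 CPM in Tdg+/- lines and at 88.8, 52.2, 54.2 and 47.8 CPM in Tdg-/- lines. Without Tdg-/- line 1 its log2 difference from wt was -0.54 ± 0.13 (edgeR adjusted p = 0.0227). From Tdg+/- lines it was -0.67 ± 0.11 in that setting (edgeR adjusted p = 0.00289). Ccnd1 was at 56.6, 104 and 103 CPM in wt lines, at 85.7, 151 and 159 CPM in Tdg+/- lines and at 95.3, 105, 93.7 and 117 CPM in Tdg-/- lines, so that it did not share the low values of Ccnd3 in Tdg-/- lines 2, 3 and 4. Their kinase partner Cdk6 ranged from 19.8 to 31.8 CPM. Lifr, the receptor subunit for LIF, which was present in the medium, ranged from 66.0 to 107 CPM over the lines and was lower than in Tdg+/- lines without Tdg-/- line 1. Ccnd1, Cdk6, Camkk2, Ndrg1, Pmepa1, Ptpn21 and Tnfaip8 were not called by edgeR or DESeq2 with all lines, or by edgeR without Tdg-/- line 1. With 3 surrogate variables Ccnd1 was higher in Tdg+/- than in wt lines, and Ccnd1 and Camkk2 were lower in Tdg-/- than in Tdg+/- lines.

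A further 47 genes that androgens are known to induce, which were not members, gave 42 tested genes. In Tdg-/- against Tdg+/- lines 4 of them were higher and 4 lower (9.52% each), beside 3.52% and 5.51% of all genes, and 0 were called in the other comparisons. The smallest p values were those of Sms, spermine synthase (log2 difference 0.74 ± 0.16, edgeR adjusted p = 0.0316), Hmgcs1, an enzyme of cholesterol synthesis (0.67 ± 0.15, adjusted p = 0.0342), Ptk2b, a relative of focal adhesion kinase (-0.52 ± 0.12, adjusted p = 0.0363), and Dnajb9, a chaperone of the endoplasmic reticulum (0.65 ± 0.16, adjusted p = 0.0415). Of 11 genes for coactivators and pioneer factors 10 were tested, and Crebbp, a histone acetyltransferase, was lower in Tdg-/- than in Tdg+/- lines (-0.53 ± 0.13, edgeR adjusted p = 0.0397). These calls are from the fit with all lines. Few of all genes stayed called in this comparison without Tdg+/- line 2 or 3, or without Tdg-/- line 2, 3 or 4. Results of these further genes with a line left out are not given. Of 4 prostate markers 1 reached 20 reads in a line, and their summed level was at most 1.53 CPM.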

How the data were processed

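The authors prepared ribosome-depleted, stranded total RNA libraries, read them from one end and estimated transcript abundance by Salmon 0.8.1 (GRCm39). The deposited estimated counts (expected counts per transcript) and the deposited TPM were summed per gene, and counts were rounded to whole numbers. Transcripts were assigned to genes through GENCODE M21 (GRCm38), which paired 98.97% of them, and unpaired transcripts, with 0.472% to 0.499% of reads per line, were left out. The symbol Ank was read as Ankh. TPM depend on effective transcript lengths, and the deposited effective lengths entered an alternative.

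A gene entered a fit if any of its lines held 20 or more reads. Tests were made by edgeR 4.0.16 (R 4.3.3; TMM, quasi-likelihood test, two-sided, Benjamini-Hochberg, adjusted p 0.05) on the genotypes compared only, and the trend on all 10 lines. SE are those of the fitted coefficient. Alternatives used DESeq2 1.42.0, sva 3.50.0, other scaling and filters, and left out each line. Fits with 3 surrogate variables leave too few degrees of freedom among these lines to serve as more than alternatives. The fitting code was tested on simulated counts. Members and lists were chosen with earlier results of these data known. Members that passed the threshold or had one of the 4 smallest p values in a comparison were named with full statistics. Other members given with fold changes, such as Abhd2, Dbi, Map7 and Akap12, were not chosen by this rule. Line numbers come from the labels, which link them to no shared mating or day. Deviations of same-numbered lines from their genotype means correlated at 0.167, 0.136 and 0.143 between wt and Tdg-/- lines. Lines with different numbers stayed at or below 0.0575 in that comparison, but reached 0.255 for Tdg+/- line 2 and Tdg-/- line 4. Correlations of this size therefore do not establish pairs. The line number was used as a block in an alternative fit, which changed no member call for Tdg-/- against wt with all lines. Fold changes and p values are from the fit without the block unless the block is named. Tdg-/- line 4 shares its number with no other line. Some results are not reported here.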

Additional observations from a re-analysis of the deposited data

Results flagged for a closer look

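In the 4 Tdg-/- lines, 51 genes (the 48 tested members and 3 receptor genes) were examined for a line far from the others, by its gap to the nearest line divided by the range of the group (Dixon's test). Chance alone sets about 1 in 20 of them apart, and 6 were. In all 6 the line was Tdg-/- line 1, above the others: Ccnd3 at 88.8 CPM (next line 54.2 CPM), B4galt1 at 24.6 CPM (next 16.4 CPM), Sec24d at 18.3 CPM (next 15.1 CPM), Actn1 at 176 CPM (next 103 CPM), Akap12 at 339 CPM (next 149 CPM) and Iqgap2 at 21.9 CPM (next 14.8 CPM). The genes share this line and are not independent of each other. Tdg-/- line 1 also differed from these lines in the counts over all genes. The share of all genes that this test sets apart was not counted, so the 6 cannot be read as particular to the members.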

How the results depend on the processing

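Counts of called members depended on the setting. For Tdg+/- against wt the count was 0, but 1 with DESeq2, 1 without the read minimum and 12 with 3 surrogate variables, and 0 to 1 with a line left out (1 without Tdg+/- line 1). For Tdg-/- against wt it was 0, and 0 to 17 with a line left out (17 without Tdg-/- line 1), or 27 without that line in a fit with the line number as a block, which was chosen after seeing the data. For Tdg-/- against Tdg+/- it was 4, but 11 with DESeq2, 7 without the read minimum and 2 with effective lengths as an offset. It was 27 with 3 surrogate variables, 8 with all lines in one fit and 0 to 25 with a line left out. Calls over all genes moved too in this comparison, from 491 higher and 770 lower of 13962 in the main fit. They were 561 and 985 of 23225 without the read minimum and 185 and 279 of 13962 with effective lengths. With all lines in one fit they were 722 and 1112 of 14105. For Tdg+/- against wt without the read minimum, 199 genes were higher and 70 lower of 22817. For the trend the member count was 0 under every alternative. The cause was not tested. With the line number as a replicate block the count for Tdg-/- against Tdg+/- was 0 members and 6 genes in all. Same-numbered lines of these genotypes correlated at 0.04, 0.02 and -0.09, and those of Tdg+/- and wt at 0.10, 0.05 and -0.03, so that the lines share only a number there. The block changed no other count of members called with all lines. The fold change for Tdg-/- against wt turned its sign for Homer2 (-0.14), Tsc22d1 (-0.0784) and Ell2 (0.18) with 3 surrogate variables, as it did for Map7 (0.13), Akap12 (0.40) and Zbtb10 (0.0497), and for Ell2 without wt line 3 (0.0079, with a range of -0.1286 to 0.0079 over lines left out). Of 33 printed fold changes of members with all lines in the fit, no other changed sign, but with 3 surrogate variables those of Slc38a2 (-0.0029), Abhd2 (-0.0319), Actn1 (-0.0432), Gsr (-0.0769), Itgav (-0.0986) and Iqgap2 (-0.1267) for Tdg-/- against wt came close to 0. The members' median for Tdg+/- against wt lay between -0.0539 and 0.0349 over the alternatives and took either sign. It was -0.02 with 3 surrogate variables for Tdg-/- against wt and -0.30 without Tdg-/- line 1 for Tdg-/- against Tdg+/-. Homer2, Stk39 and Zmiz1, with few reads per line, have the least precise values.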
